A study of Mus musculus with 8 samples.

Results

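The 38 genes described here encode the machinery that builds autophagosomes, the cargo receptors Sqstm1, Nbr1 and Optn, and the transcription factors Tfeb and Tfe3. They were taken as a list of gene symbols, and each symbol matched 1 protein-coding identifier among the 54232 gene identifiers in the count files. All 38 passed the filter on low counts that left 19251 genes for testing, and the lowest count of any of them in a library was 15, for Optn. RNA was sequenced from mechanically scraped back-skin epidermis of female mice of a shared F1 background of C57Bl and 129, either REDD1 knockout (KO) or wild type (WT). FA+TPA skin was given 2 ug of FA (fluocinolone acetonide, a glucocorticoid used on skin) and, 1 h later, 4 ug of the phorbol ester TPA, a skin irritant and tumour promoter. TPA skin received TPA (4 ug) alone, and vehicle skin received acetone (200 ul), which all groups shared as solvent. Skin was taken 24 h after TPA. There was 1 library of each genotype for FA+TPA and for TPA, and 2 of each genotype for vehicle, 8 in all. The labels give no age, and do not say whether animals were pooled or how the knockout allele was made.

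In macroautophagy, a growing membrane sac encloses cytoplasm and then fuses with lysosomes, where the contents are digested. The ULK1 kinase complex starts the process and is held inactive by mTORC1, the nutrient-sensing kinase that REDD1 (the protein of Ddit4) inhibits through the TSC complex. Tfeb and Tfe3 switch on lysosomal and autophagy genes and are likewise kept out of the nucleus by mTORC1, and in epidermis autophagy takes part in the terminal differentiation of keratinocytes. Levels are given as CPM, counts scaled to a common library size with TMM factors, and differences as log2 fold change ± standard error (SE) with the adjusted p of edgeR's quasi-likelihood test. A gene is said to have risen or fallen where that adjusted p was under 0.05. RNA only was measured, so protein levels and autophagic flux were not analysed here.

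The 8 libraries held between 16874233 and 22560098 counts, and 3 counts corresponded to between 0.135 and 0.191 CPM. Ddit4 (chromosome 10, 59949669 to 59951834 in mm10) had 7.25 CPM in KO and 90.3 CPM in WT skin under FA+TPA, and 4.44 CPM in KO and 64.2 CPM in WT skin under TPA. In vehicle skin it had 18.8 and 18.6 CPM in KO libraries, against 128 and 117 CPM in WT libraries, so every KO library was below every WT library. The 9 keratinocyte markers were detected in every library, with summed levels of 39300 CPM in KO and 43100 CPM in WT skin under FA+TPA, 26500 CPM in KO and 31800 CPM in WT skin under TPA, and 29300 to 35200 CPM in vehicle skin. The 7 neutrophil markers summed to 199 CPM in KO and 109 CPM in WT skin under FA+TPA, 396 CPM in KO and 931 CPM in WT skin under TPA, and 4.24 to 14.9 CPM in vehicle skin. In treated skin most of that sum was S100a8 and S100a9, which keratinocytes can also make, and the defining neutrophil gene Ly6g was listed at 0 in all libraries but the KO TPA library, where it had 0.0449 CPM. The 5 hair follicle stem cell markers summed to 857 CPM in KO and 883 CPM in WT skin under FA+TPA, 458 CPM in KO and 220 CPM in WT skin under TPA, and 2010 to 2320 CPM in vehicle skin. Langerhans cell markers summed to 473 to 699 CPM in treated skin, against 889 to 1020 CPM in vehicle skin. Fibroblast markers summed to 263 to 513 CPM in treated skin, against 621 to 1170 CPM in vehicle skin. These sums hide rises: with TPA 1 of 6 Langerhans cell markers rose and 5 fell, and 2 of 6 fibroblast markers rose and 3 fell. Of the 5 hair follicle stem cell markers 1 rose and 2 fell with TPA. Skeletal muscle markers summed to 105 CPM in KO and 93.8 CPM in WT skin under FA+TPA, 29.7 CPM in KO and 16.1 CPM in WT skin under TPA, and 161 and 49.8 CPM in KO and 19.2 and 4.97 CPM in WT vehicle skin. Sebaceous markers summed to 2640 CPM in KO and 885 CPM in WT skin under FA+TPA, 2140 CPM in KO and 1970 CPM in WT skin under TPA, and 4070 and 5200 CPM in KO and 1460 and 2290 CPM in WT vehicle skin. T cell markers summed to 55.7 to 69.7 CPM in treated skin, and to 62.1 and 51.2 CPM in KO and 81.6 and 83.8 CPM in WT vehicle skin, and 1 of 7 rose and 4 fell with TPA. Endothelial, adipocyte, melanocyte and erythroid markers each summed to at most 12.7 CPM in any library. Of 4 endothelial markers 3 rose with TPA. They summed to 9.96 CPM in KO and 6.23 CPM in WT skin under FA+TPA, 12.7 CPM in KO and 7.52 CPM in WT skin under TPA, and 3.05 to 4.55 CPM in vehicle skin. Of 2 melanocyte and 2 erythroid markers tested 1 of each fell with TPA, and of 2 adipocyte markers tested 0 passed. In bulk RNA fewer cells of a type and less RNA per cell cannot be told apart. The part of these shifts of markers in the values that follow was not tested.

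Per unit of length, Map1lc3a gave the highest level of the 38 genes and Optn the lowest. CPM per kb of the principal transcript, a level corrected for transcript length, had a median over the 8 libraries of 87.0 for Map1lc3a (range 60.6 to 97.0) and 81.1 for Wipi2 (range 73.0 to 125). Gabarap followed at 69.4 and Sqstm1 at 52.7 on the same scale. The ranges of Map1lc3a and Wipi2 overlapped, so their order was not larger than the spread over libraries. Within families the gap was often wide. Atg9b stood at 36.8 (range 20.4 to 76.5) and Atg9a, the form found in most tissues, at 7.89 (range 7.38 to 8.82) CPM per kb. Ulk1 stood at 24.9 (range 18.3 to 29.4) and Ulk2 at 5.54 (range 2.66 to 7.49) CPM per kb. Tfe3 stood at 15.5 (range 12.1 to 19.4) and Tfeb at 7.66 (range 5.54 to 11.9) CPM per kb. None of these 3 pairs had overlapping ranges on the scale of the principal transcript. The order depended on the transcript taken: over the union of all annotated exons Wipi2 had a median of 15.1 and Map1lc3a of 81.9 CPM per kb. Over that union the ranges of Tfe3 and Tfeb overlapped.

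Treatment moved many of the 38 genes, in both directions. With TPA against vehicle 9 rose, 12 fell and 17 did not pass the test. Of all 19251 genes tested, 46.0% passed in that comparison, 23.2% higher and 22.8% lower, and the share of the 38 was 55.3%. With FA+TPA against TPA 8 rose, 0 fell and 30 did not pass, which is 21.1% of the 38. The background there was 10% of all genes, 5.71% higher and 4.31% lower. With FA+TPA against vehicle 8 rose, 5 fell and 25 did not pass, which is 34.2% of the 38 and close to the background of 31.6% of all genes (17.4% higher and 14.2% lower). The median log2 fold change of the 38 genes was 0.01 for FA+TPA against TPA, 0.00 for FA+TPA against vehicle and -0.05 for TPA against vehicle, beside medians over all genes of 0.007, -0.014 and -0.028. These comparisons share libraries, and each was fitted over both genotypes. The labels do not tie the samples to separate animals, so the p-values speak only to how these samples vary, and that variation could be technical.

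**Figure D1:**
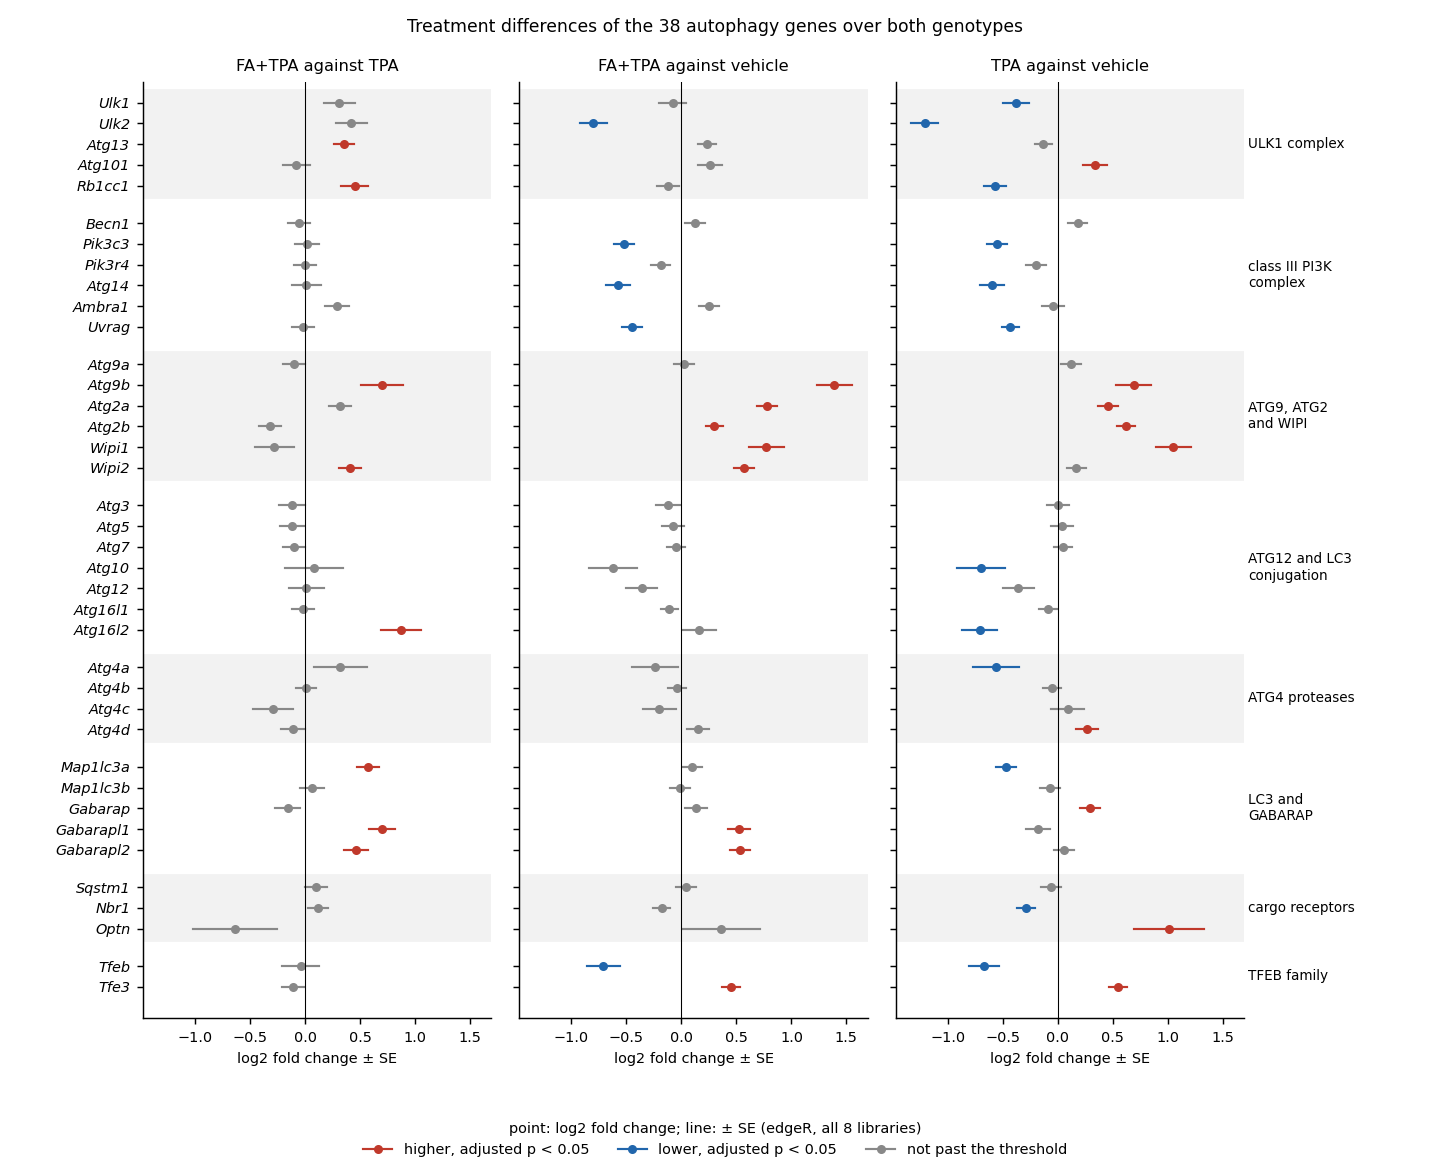
Log2 fold change ± SE of each of the 38 genes, grouped by role down the page, for FA+TPA against TPA (left), FA+TPA against vehicle (middle) and TPA against vehicle (right), fitted with edgeR on all 8 libraries. Red marks genes that rose (8, 8 and 9 genes), blue genes that fell (0, 5 and 12 genes) and grey genes that did not pass the test.

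Scaling by library size alone, in place of TMM, moved the median log2 fold change of all genes to -0.253 for TPA against vehicle and to -0.233 for FA+TPA against vehicle. The split of the 38 genes then became 5 higher and 20 lower for TPA against vehicle and 6 higher and 12 lower for FA+TPA against vehicle, and over all genes 2846 were higher and 6432 lower with TPA. The genes lower with TPA under that scaling and not under TMM were Atg13, Pik3r4, Atg12, Atg16l1, Atg4b, Map1lc3b, Gabarapl1 and Sqstm1. The transcript Gm26917 took 16.77% to 24.21% of the counts in treated libraries, against 8.34% to 13.83% in vehicle libraries. Leaving out 1 library also moved these counts. For TPA against vehicle 5 genes were higher without KO vehicle replicate 1 and 5 without the WT TPA library. For FA+TPA against TPA 1 gene was higher without any 1 of the 4 treated libraries, which leaves that treatment with 1 library, and Atg2b was the 1 gene lower without WT vehicle replicate 1. For FA+TPA against vehicle 5 genes were higher without the KO FA+TPA library and 3 lower without the WT FA+TPA library.

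The promoters of 3 genes are shown because they frame the results below: Gabarapl1 had the smallest p of the 38 genes for FA+TPA against TPA, Atg14 fell with TPA and had the smallest p for KO against WT over all treatments, and Atg3 did not pass any test but carries the motif recognised by the TFEB family. RefSeq gives a window from 250 bases before to 50 bases after the start site, in build GRCm38.p6, for 32 of the 38 genes. Each sequence is written 5′ to 3′ on the strand of the gene, and capitals mark the E-box CACGTG and, where it extends to 8 bases, the CLEAR core TCACGTGA, which contains an E-box.
Gabarapl1 promoter, chr6:129532942-129533241, plus strand: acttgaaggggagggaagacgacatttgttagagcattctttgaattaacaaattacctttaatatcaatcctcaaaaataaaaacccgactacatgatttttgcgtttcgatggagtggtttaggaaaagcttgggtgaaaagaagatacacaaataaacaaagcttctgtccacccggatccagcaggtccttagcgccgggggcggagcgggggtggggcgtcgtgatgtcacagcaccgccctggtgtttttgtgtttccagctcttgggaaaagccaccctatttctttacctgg
Atg14 promoter, chr14:47568385-47568684, minus strand: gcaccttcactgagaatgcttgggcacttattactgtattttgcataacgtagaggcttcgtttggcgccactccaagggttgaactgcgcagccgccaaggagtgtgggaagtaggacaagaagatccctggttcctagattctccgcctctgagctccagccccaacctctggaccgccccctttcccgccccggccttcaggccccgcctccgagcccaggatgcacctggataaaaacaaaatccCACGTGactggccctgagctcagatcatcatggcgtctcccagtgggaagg
Atg3 promoter, chr16:45158579-45158878, plus strand: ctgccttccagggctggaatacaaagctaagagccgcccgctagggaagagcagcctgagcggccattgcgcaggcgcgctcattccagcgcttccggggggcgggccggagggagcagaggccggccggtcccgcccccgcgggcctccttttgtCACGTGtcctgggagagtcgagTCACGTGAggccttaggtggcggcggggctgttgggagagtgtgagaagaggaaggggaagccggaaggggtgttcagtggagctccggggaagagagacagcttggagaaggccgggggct
The Gabarapl1 window held neither motif, and no window of the 32 genes held the glucocorticoid response element, searched on both strands as GNACA and TGTNC with 3 bases of any kind between them, which 0.475% of all 32851 RefSeq windows held. The E-box was in the windows of Atg3, Atg5, Atg7 and Atg14, which is 10.5% of the 38 windows of these genes and 7.15% of all windows. The CLEAR core was in the window of Atg3 alone, where it began 72 bases before the start site, and in 0.974% of all windows. A match is a description of these letters and not a binding site.

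The ULK1 complex, the kinase that starts autophagosome formation, was lower with TPA in 3 of its 5 genes, beside 22.8% of all genes, and the groups of genes by role were not tested against each other. Ulk2 (chromosome 11, 61775649 to 61855073 in mm10), a kinase that can act in place of Ulk1, fell most of the 38 genes. It had 25.2 CPM in KO and 20.9 CPM in WT skin under FA+TPA, 19.2 CPM in KO and 15.3 CPM in WT skin under TPA, and 39.2 and 39.1 CPM in KO and 43.0 and 38.5 CPM in WT vehicle skin. All 4 treated libraries were below all 4 vehicle libraries. The log2 fold change was -1.21 ± 0.12 for TPA against vehicle (edgeR adjusted p = 1.92e-05) and -0.80 ± 0.12 for FA+TPA against vehicle (edgeR adjusted p = 0.000571). FA+TPA differed from TPA by 0.42 ± 0.14, which missed the threshold (edgeR adjusted p = 0.0865).

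Rb1cc1 (FIP200), the scaffold of the ULK1 complex, fell with TPA and was higher in FA+TPA than in TPA skin. It had 193 CPM in KO and 218 CPM in WT skin under FA+TPA, 150 CPM in each genotype under TPA, and 243 and 206 CPM in KO and 207 and 235 CPM in WT vehicle skin. The TPA libraries were the lowest, and the FA+TPA range overlapped that of vehicle. For Rb1cc1 TPA minus vehicle was -0.57 ± 0.10 (edgeR adjusted p = 0.00102) and FA+TPA minus TPA was 0.45 ± 0.12 (edgeR adjusted p = 0.0319). Atg13, the subunit that links the kinase to Rb1cc1, had 127 and 125 CPM in KO and WT skin under FA+TPA, 92.9 and 104 CPM in KO and WT skin under TPA, and 103 to 112 CPM in vehicle skin. It was higher in FA+TPA than in TPA skin by 0.35 ± 0.09 (edgeR adjusted p = 0.0364), and TPA differed from vehicle by -0.13 ± 0.08, which did not pass the test. Ulk1 itself had 134 and 125 CPM in KO and WT skin under FA+TPA, 95.4 and 115 CPM in KO and WT skin under TPA, and 134 and 143 CPM in KO and 153 and 118 CPM in WT vehicle skin, a log2 fold change of -0.38 ± 0.12 (edgeR adjusted p = 0.0226). Without the KO TPA library the Ulk1 value was -0.19 with an edgeR adjusted p of 0.393, and with library size alone it was -0.62. The TPA libraries were again the lowest. Atg101, which stabilises Atg13, had 19.4 and 20.8 CPM in KO and WT skin under FA+TPA, 19.3 and 23.5 CPM in KO and WT skin under TPA, and 16.1 to 17.3 CPM in vehicle skin, and rose with TPA by 0.34 ± 0.11 (edgeR adjusted p = 0.0216). Its adjusted p was 0.282 without the WT TPA library and 0.05 without KO vehicle replicate 1, and 0.471 with library size alone.

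**Figure D2:**
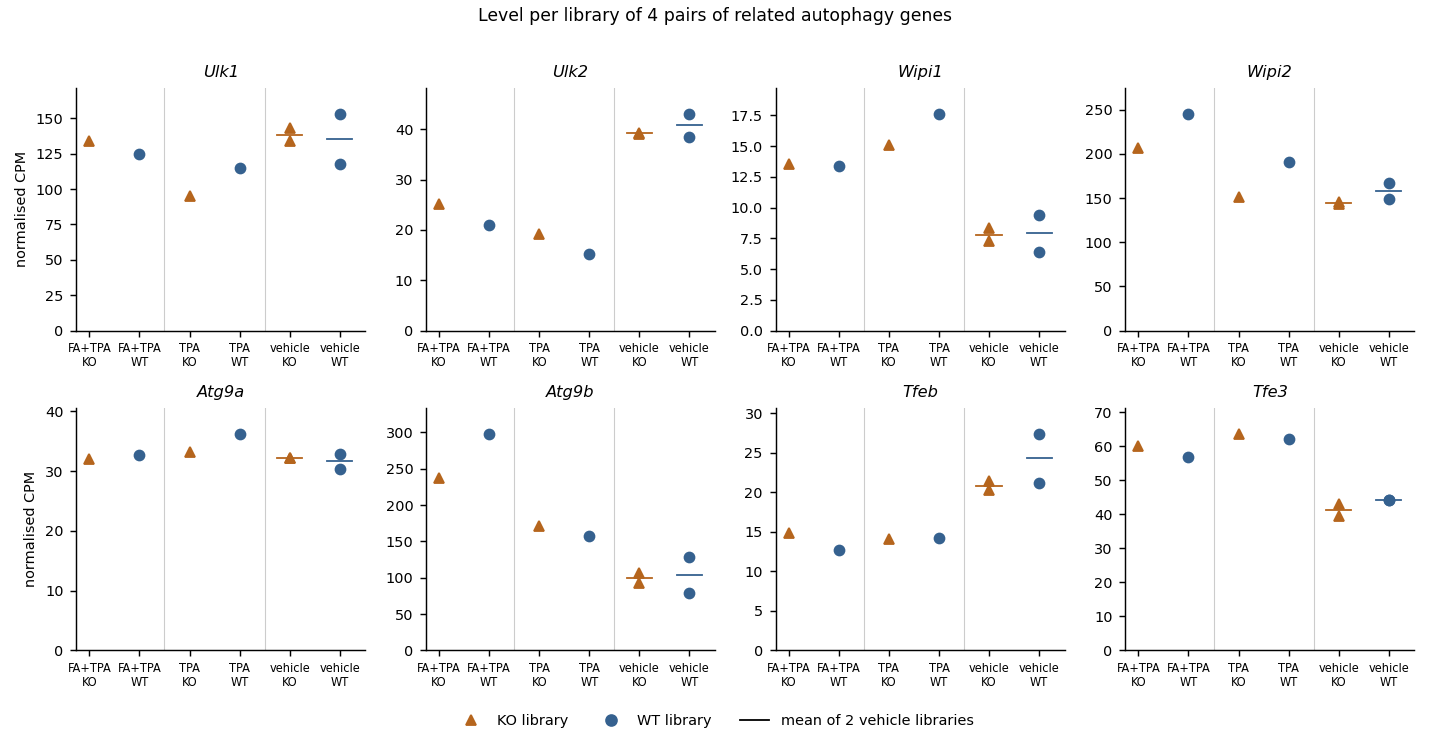
Level in normalised CPM (vertical axes, from 0) of 4 pairs of related genes in each library, with KO libraries as triangles, WT libraries as circles and bars for the mean of 2 vehicle libraries of a genotype. Ulk2 and Tfeb were lower and Wipi1, Atg9b and Tfe3 higher in all 4 treated libraries than in all 4 vehicle libraries, while Atg9a stayed between 30.4 and 36.2 CPM.

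The class III PI3K complex makes the lipid signal that marks the site of the growing membrane. Of its 6 genes 3 fell with TPA and were also lower in FA+TPA than in vehicle skin. Over all genes 22.8% were lower with TPA and 14.2% with FA+TPA, each against vehicle. Pik3c3, the lipid kinase itself, had 29.1 and 30.0 CPM in KO and WT skin under FA+TPA, and 29.4 and 28.7 CPM in KO and WT skin under TPA. Vehicle skin had 40.2 and 39.1 CPM in KO and 44.8 and 46.2 CPM in WT libraries, all above every treated library. The differences were -0.52 ± 0.09 for FA+TPA (edgeR adjusted p = 0.00182) and -0.55 ± 0.09 for TPA (edgeR adjusted p = 0.000772). Atg14, the subunit that directs the kinase to autophagosome formation, had 14.4 CPM in KO and 18.6 CPM in WT skin under FA+TPA, and 13.9 CPM in KO and 18.8 CPM in WT skin under TPA. In vehicle skin Atg14 had 22.5 and 22.7 CPM in KO libraries, against 28.0 and 25.1 CPM in WT libraries. The treated libraries were again all below the vehicle libraries, and within each treatment KO was below WT. The differences from vehicle were -0.58 ± 0.11 for FA+TPA (edgeR adjusted p = 0.00251) and -0.60 ± 0.11 for TPA (edgeR adjusted p = 0.00117). Uvrag, which replaces Atg14 in a second form of the complex that acts on endosomes, had 40.7 to 45.3 CPM in treated skin, against 56.4 to 60.7 CPM in vehicle skin, with differences of -0.45 ± 0.09 for FA+TPA (edgeR adjusted p = 0.00246) and -0.43 ± 0.08 for TPA (edgeR adjusted p = 0.00189). Without the KO FA+TPA library the FA+TPA difference of Atg14 had an adjusted p of 0.0538, and without the WT FA+TPA library that of Uvrag had 0.0607. Scaled by library size alone, the TPA value of Uvrag was -0.66. FA+TPA differed from TPA by 0.02 for Pik3c3, 0.01 for Atg14 and -0.02 for Uvrag. The shared core subunits Becn1 (50.1 to 64.6 CPM) and Pik3r4 (36.3 to 45.6 CPM) and the regulator Ambra1 (94.4 to 132 CPM) passed in none of the 3 treatment comparisons. Of the exon length of Becn1, 43.9% overlaps Cntd1 and, of Uvrag, 17.6% overlaps Gm45187, both on the opposite strand. Over the 8 libraries Cntd1 had 188 counts against 8725 for Becn1, and Gm45187 had 206 against 7757 for Uvrag.

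In the ATG9, ATG2 and WIPI group, whose products supply and expand the membrane, 4 of 6 genes rose with TPA and 0 fell. In FA+TPA skin 5 were higher than in vehicle skin. Over all genes 23.2% were higher with TPA and 17.4% with FA+TPA, each against vehicle. Atg9b (chromosome 5, 24384181 to 24392143 in mm10), a lipid scramblase of the vesicles that seed the membrane, was the gene with the widest change. It had 237 CPM in KO and 298 CPM in WT skin under FA+TPA, 171 CPM in KO and 158 CPM in WT skin under TPA, and 92.5 and 107 CPM in KO and 129 and 79.5 CPM in WT vehicle skin. The 3 treatments did not overlap. Atg9b was higher in FA+TPA than in vehicle skin by 1.39 ± 0.16 (edgeR adjusted p = 0.000126), in FA+TPA than in TPA skin by 0.70 ± 0.19 (edgeR adjusted p = 0.0463) and in TPA than in vehicle skin by 0.69 ± 0.16 (edgeR adjusted p = 0.00568). Its value for TPA against vehicle was 0.59 without the KO TPA library, with an adjusted p of 0.0761. Over the 8 libraries Nos3, which overlaps 7.5% of its exon length on the opposite strand, had 272 counts against 23130 for Atg9b. Its relative Atg9a had no call, with 32.0 and 32.7 CPM in KO and WT skin under FA+TPA, 33.1 and 36.2 CPM in KO and WT skin under TPA, and 30.4 to 32.8 CPM in vehicle skin. Of its exon length 32.6% overlaps Gm29253 and Ankzf1, which together had 5168 counts over the 8 libraries against 4935 for Atg9a.

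Wipi1, which binds the lipid made by Pik3c3, had the highest log2 fold change with TPA of the 38 genes, above that of Optn by less than the SE of either. It had 13.5 and 13.4 CPM in KO and WT skin under FA+TPA, 15.1 and 17.6 CPM in KO and WT skin under TPA, and 7.31 and 8.31 CPM in KO and 6.39 and 9.41 CPM in WT vehicle skin. Treated and vehicle libraries did not overlap, and the differences from vehicle were 0.77 ± 0.16 for FA+TPA (edgeR adjusted p = 0.0043) and 1.05 ± 0.16 for TPA (edgeR adjusted p = 0.000296). Wipi2, which recruits the LC3 conjugation machinery to the same lipid, had 207 and 245 CPM in KO and WT skin under FA+TPA, 151 and 191 CPM in KO and WT skin under TPA, and 145 and 143 CPM in KO and 167 and 149 CPM in WT vehicle skin. It was higher in FA+TPA than in TPA skin by 0.41 ± 0.10 (edgeR adjusted p = 0.0279) and than in vehicle skin by 0.57 ± 0.09 (edgeR adjusted p = 0.000605), while TPA differed from vehicle by 0.17 ± 0.09, which did not pass the test. The lipid-transfer proteins Atg2a and Atg2b both rose with TPA, and FA+TPA lay on opposite sides of TPA for them. Atg2a had 146 and 164 CPM in KO and WT skin under FA+TPA, 116 and 133 CPM in KO and WT skin under TPA, and 85.4 to 98.9 CPM in vehicle skin. Atg2b had 129 and 130 CPM in KO and WT skin under FA+TPA, 154 and 169 CPM in KO and WT skin under TPA, and 97.0 to 110 CPM in vehicle skin. The differences of TPA from vehicle were 0.46 ± 0.09 for Atg2a (edgeR adjusted p = 0.00142) and 0.62 ± 0.08 for Atg2b (edgeR adjusted p = 0.000134). Those of FA+TPA from TPA were 0.32 for Atg2a and -0.32 for Atg2b, and neither passed the test (edgeR adjusted p = 0.078 and 0.0662). FA+TPA exceeded vehicle by 0.78 ± 0.09 for Atg2a (edgeR adjusted p = 9.08e-05) and 0.30 ± 0.08 for Atg2b (edgeR adjusted p = 0.0181), the Atg2b call being lost without KO vehicle replicate 1 (adjusted p = 0.0615) and without the KO (0.216) or WT (0.123) FA+TPA library. Without the KO FA+TPA library the FA+TPA difference of Wipi1 from vehicle had an adjusted p of 0.0711. With library size alone the TPA difference of Atg2a was 0.23 with an adjusted p of 0.0686 and that of Atg2b 0.39, and FA+TPA against vehicle gave 0.09 for Atg2b (adjusted p = 0.521) and 0.36 for Wipi2. With 1 mean per group the FA+TPA difference of Atg2b from vehicle had an adjusted p of 0.0562.

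Of the 7 genes of the conjugation machinery that attaches LC3 to membrane, 2 fell with TPA, beside 22.8% of all genes. In FA+TPA skin 1 was higher than in TPA skin, beside 5.71% of all genes. Atg7, Atg3, Atg5, Atg12 and Atg16l1 passed in none of the 3 treatment comparisons. Over the 8 libraries Atg7 ranged from 33.0 to 37.6 CPM, Atg3 from 32.2 to 42.1 CPM and Atg5 from 25.5 to 30.0 CPM. Atg12 ranged from 21.9 to 34.4 CPM and Atg16l1 from 59.2 to 67.5 CPM. For Atg7 and Atg5 the 95% intervals of TPA against vehicle were -0.14 to 0.23 and -0.17 to 0.26. Atg16l2, a relative of Atg16l1 that is less able to support autophagy, differed from these. It had 19.9 CPM in KO and 27.9 CPM in WT skin under FA+TPA, 13.9 CPM in KO and 12.1 CPM in WT skin under TPA, and 21.8 and 23.6 CPM in KO and 20.1 and 19.8 CPM in WT vehicle skin. The TPA libraries were the lowest, and of the FA+TPA libraries KO lay within the range of vehicle and WT above it. TPA minus vehicle was -0.71 ± 0.16 (edgeR adjusted p = 0.00359) and FA+TPA minus TPA was 0.87 ± 0.18 (edgeR adjusted p = 0.0106). The last value was 0.50 without the WT FA+TPA library (adjusted p = 0.178) and 0.76 without the WT TPA library (adjusted p = 0.0986), and the adjusted p of TPA against vehicle was 0.0543 without the WT TPA library. Atg10, the E2 enzyme for Atg12, had 3.68 and 2.48 CPM in KO and WT skin under FA+TPA, 3.23 and 2.59 CPM in KO and WT skin under TPA, and 4.31 to 5.33 CPM in vehicle skin, a log2 fold change of -0.70 ± 0.22 (edgeR adjusted p = 0.0236) that was lost without the KO (adjusted p = 0.0679) or WT (0.201) TPA library and by DESeq2 (0.0521).

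Among the ATG4 proteases, which prepare LC3 for conjugation and later release it, Atg4b, the most active form, ranged from 48.3 to 52.1 CPM over the 8 libraries. Atg4a fell with TPA by 0.56 ± 0.21 (edgeR adjusted p = 0.0498), at 3.86 and 3.12 CPM in KO and WT skin under FA+TPA, 3.05 and 2.53 CPM in KO and WT skin under TPA, and 3.59 to 5.02 CPM in vehicle skin. Atg4d rose by 0.27 ± 0.10 (edgeR adjusted p = 0.0436), at 52.1 and 55.5 CPM in KO and WT skin under FA+TPA, 56.6 and 59.8 CPM in KO and WT skin under TPA, and 43.3 to 53.4 CPM in vehicle skin. Both calls were at the edge of the threshold: leaving out libraries 1 at a time gave adjusted p-values up to 0.214 for Atg4a and 0.237 for Atg4d, both without the WT TPA library, and each call was lost in 7 of 8 such fits. DESeq2 called neither (adjusted p = 0.147 and 0.069), and with library size alone Atg4d was at 0.04. Atg4a has a listed pseudogene, Atg4a-ps, with which reads could be shared, and 19.3% of the exon length of Atg4d overlaps Kri1 on the opposite strand, which had 2543 counts over the 8 libraries against 7848 for Atg4d. Atg4c, at 6.82 to 9.74 CPM, passed in none of the treatment comparisons.

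The LC3 and GABARAP genes encode the small proteins that coat the membrane and hold cargo receptors. Of these 5 genes 3 were higher in FA+TPA than in TPA skin, beside 5.71% of all genes. Gabarapl1 (chromosome 6, 129533160 to 129542346 in mm10) had 44.4 and 45.0 CPM in KO and WT skin under FA+TPA, 25.5 and 29.6 CPM in KO and WT skin under TPA, and 31.6 and 33.9 CPM in KO and 30.3 and 28.8 CPM in WT vehicle skin. The FA+TPA libraries were above the other 6. Gabarapl1 exceeded TPA by 0.70 ± 0.12 (edgeR adjusted p = 0.00457) and vehicle by 0.52 ± 0.10 (edgeR adjusted p = 0.00306), while TPA differed from vehicle by -0.18 ± 0.11, which missed the threshold (edgeR adjusted p = 0.187). Over the 8 libraries 1700101I11Rik, which overlaps 28.3% of its exon length on the opposite strand, had 74 counts against 5005 for Gabarapl1. Gabarapl2 had the same pattern, with 35.3 and 39.2 CPM in KO and WT skin under FA+TPA, 25.2 and 29.0 CPM in KO and WT skin under TPA, and 23.7 to 27.1 CPM in vehicle skin. It exceeded TPA by 0.46 ± 0.11 (edgeR adjusted p = 0.0198) and vehicle by 0.53 ± 0.09 (edgeR adjusted p = 0.0014). With library size alone the excess over vehicle was 0.30 for Gabarapl1 and 0.31 for Gabarapl2, each still past the threshold, and without the WT FA+TPA library that of Gabarapl1 had an adjusted p of 0.0712.

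Map1lc3a, 1 of the LC3 genes, was low under TPA and within the range of vehicle under FA+TPA. It had 105 and 103 CPM in KO and WT skin under FA+TPA, 67.4 and 73.2 CPM in KO and WT skin under TPA, and 91.6 and 88.0 CPM in KO and 102 and 108 CPM in WT vehicle skin. FA+TPA exceeded TPA by 0.57 ± 0.10 (edgeR adjusted p = 0.00541), TPA minus vehicle was -0.47 ± 0.09 (edgeR adjusted p = 0.00145), and FA+TPA minus vehicle was 0.10 ± 0.09, which missed the threshold (edgeR adjusted p = 0.413). Map1lc3b, the LC3 gene most used as an autophagy marker, had 78.6 to 91.6 CPM over the 8 libraries and passed in none of these comparisons. Gabarap had 98.9 and 90.5 CPM in KO and WT skin under FA+TPA, 104 and 108 CPM in KO and WT skin under TPA, and 83.4 and 86.0 CPM in KO and 80.1 and 96.9 CPM in WT vehicle skin, a rise of 0.29 ± 0.09 (edgeR adjusted p = 0.0273). The Gabarap call was lost without either TPA library (adjusted p = 0.0699 without KO and 0.182 without WT), without KO vehicle replicate 1 (0.0767) or 2 (0.0581), with library size alone (0.677) and with 1 mean per group (0.0587).

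**Figure D3:**
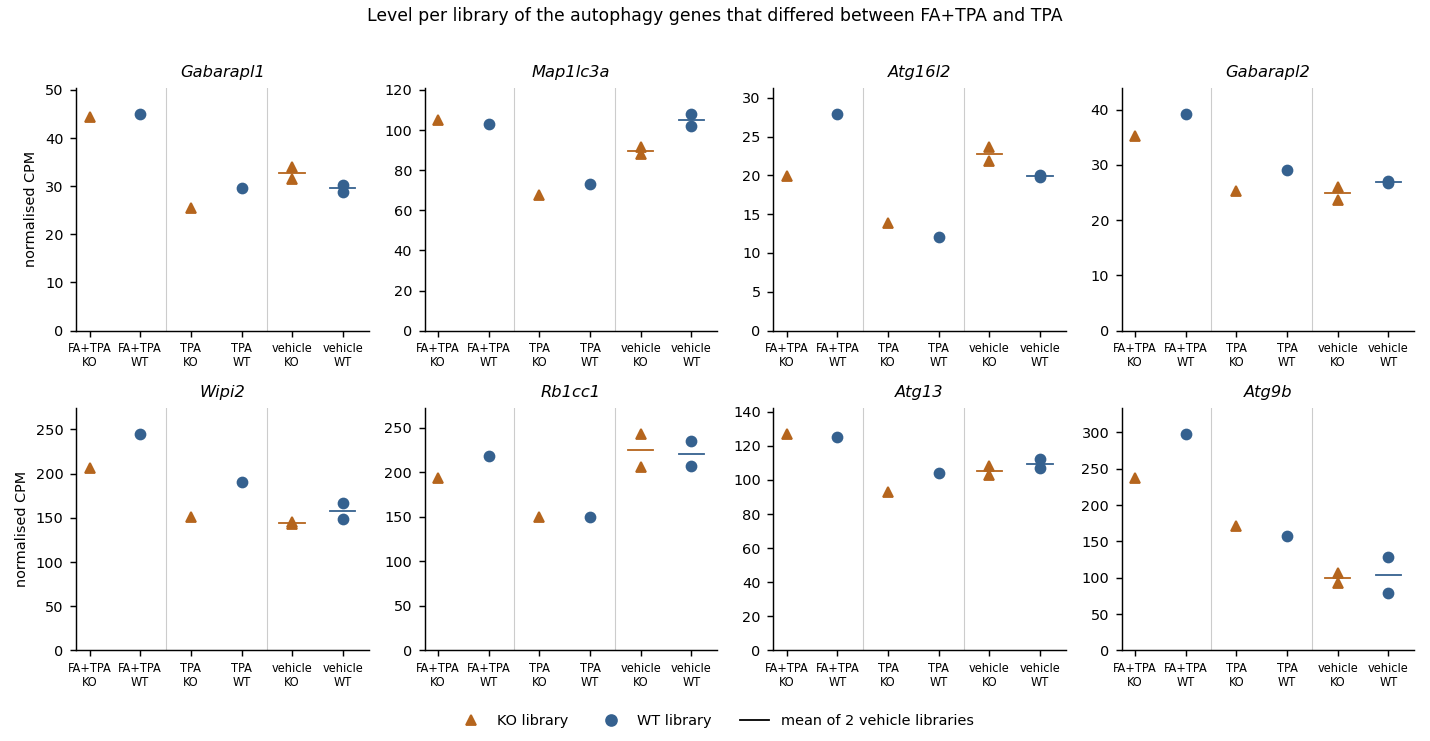
Level in normalised CPM (vertical axes, from 0) of the 8 genes that were higher in FA+TPA than in TPA skin, in each library, with KO libraries as triangles, WT libraries as circles and bars for the mean of 2 vehicle libraries of a genotype. In each panel both FA+TPA libraries lie above both TPA libraries, and for Map1lc3a, Rb1cc1 and Atg16l2 the TPA libraries lie below every vehicle library.

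The 8 genes that rose with FA+TPA against TPA were Gabarapl1, Map1lc3a, Atg16l2, Gabarapl2, Wipi2, Rb1cc1, Atg13 and Atg9b, where 5.71% of all genes were called higher. Both FA+TPA libraries were above both TPA libraries for each of them. The genes were picked by the test of these same libraries, so that order is not separate support. The same libraries differed in keratinocyte markers, of which 5 of 9 rose, 0 fell and the median log2 fold change was 0.42. Of 5 neutrophil markers tested 3 fell and 0 rose (median -2.05). Of 9 macrophage and monocyte markers 2 rose and 1 fell, of 5 hair follicle stem cell markers 1 rose and 1 fell, and of 7 T cell markers 1 fell. Skeletal muscle markers were all 5 higher in FA+TPA skin, with a median log2 fold change of 2.74. Of those 5, 0 passed the edgeR test and 4 were at an unadjusted p under 0.05. The part of these shifts in the 8 rises was not tested. With 1 of the 4 treated libraries left out, 7 of the 8 calls were lost each time, the values keeping their sign. Gabarapl1 then ranged from 0.51 (without the KO TPA library, adjusted p = 0.0969) upwards, and it also lost its call without the KO (0.0551) or WT (0.0902) FA+TPA library, keeping it without the WT TPA library. Map1lc3a kept its call without the WT FA+TPA library, and its value was 0.43 without the KO FA+TPA library (adjusted p = 0.108), with adjusted p-values of 0.0562 without the KO and 0.0521 without the WT TPA library. Gabarapl2 had adjusted p-values of 0.168 and 0.2 without the KO or WT FA+TPA library and 0.216 and 0.099 without the KO or WT TPA library. Those of Wipi2 were 0.194, 0.283, 0.327 and 0.0728, of Rb1cc1 0.0993, 0.341, 0.168 and 0.184, of Atg13 0.338, 0.182, 0.358 and 0.103, and of Atg9b 0.113, 0.388, 0.123 and 0.276, in the same order of libraries. Atg13 and Atg9b also lost their calls without KO vehicle replicate 1 (0.0625 and 0.0586) or 2 (0.0603 and 0.0549). Atg13 was further not called by DESeq2 (0.0682), with RLE normalisation (0.0534), with library size alone (0.0596) or without the filter on low counts (0.0572), nor Atg9b with RLE normalisation (0.0531), with a minimum count of 50 (0.0539) or without Gm26917 (0.0568), nor Rb1cc1 with library size alone (0.0517). With 1 mean per group the calls of Atg13, Atg9b, Gabarapl2, Rb1cc1 and Wipi2 were lost.

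The cargo receptors tie ubiquitin-tagged cargo to LC3. Sqstm1 (p62), the best known of them, passed in none of the treatment comparisons, at 120 and 104 CPM in KO and WT skin under FA+TPA, 100 and 109 CPM in KO and WT skin under TPA, and 104 to 114 CPM in vehicle skin. Nbr1, its relative, had 120 and 122 CPM in KO and WT skin under FA+TPA, 115 and 109 CPM in KO and WT skin under TPA, and 144 and 137 CPM in KO and 128 and 139 CPM in WT vehicle skin, a log2 fold change of -0.29 ± 0.08 (edgeR adjusted p = 0.0136) that was lost without the KO (adjusted p = 0.111) or WT (0.134) TPA library and was -0.52 with library size alone. The Nbr1 levels of treated skin were all below those of vehicle skin. Optn, the least abundant of the 38, had 3.80 and 1.91 CPM in KO and WT skin under FA+TPA, 4.22 and 4.38 CPM in KO and WT skin under TPA, and 2.58 and 3.13 CPM in KO and 0.848 and 2.22 CPM in WT vehicle skin, a rise of 1.01 ± 0.32 (edgeR adjusted p = 0.0261). Its TPA libraries were above every vehicle library, and the WT FA+TPA library was not. The Optn value was 0.55 without the WT TPA library (adjusted p = 0.316) and 1.55 without the KO TPA library (0.0146), and its adjusted p was 0.053 without KO vehicle replicate 1.

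The 2 transcription factors moved in opposite directions with treatment. Tfeb had 14.9 and 12.7 CPM in KO and WT skin under FA+TPA, 14.1 and 14.2 CPM in KO and WT skin under TPA, and 20.3 and 21.4 CPM in KO and 27.4 and 21.2 CPM in WT vehicle skin. Tfe3 had 60.0 and 56.9 CPM in KO and WT skin under FA+TPA, 63.7 and 62.1 CPM in KO and WT skin under TPA, and 39.7 and 43.0 CPM in KO and 44.3 and 44.4 CPM in WT vehicle skin. Every treated library was below every vehicle library for Tfeb and above it for Tfe3. Tfeb differed from vehicle by -0.71 ± 0.15 with FA+TPA (edgeR adjusted p = 0.00436) and by -0.67 ± 0.14 with TPA (edgeR adjusted p = 0.00339). Tfe3 differed from vehicle by 0.45 ± 0.08 with FA+TPA (edgeR adjusted p = 0.00249) and by 0.55 ± 0.08 with TPA (edgeR adjusted p = 0.000336). The FA+TPA difference had an adjusted p of 0.112 for Tfeb without the WT FA+TPA library and 0.0695 for Tfe3 without the KO FA+TPA library. FA+TPA differed from TPA by -0.04 ± 0.17 for Tfeb and -0.11 ± 0.10 for Tfe3, and neither passed the test. With library size alone the TPA values were -0.89 for Tfeb and 0.33 for Tfe3, each still past the threshold, and the FA+TPA value of Tfe3 was 0.23, which was not (adjusted p = 0.112).

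Loss of REDD1 was not accompanied by a called difference in any of the 38 genes. Over all treatments 0 of 38 were higher and 0 lower in KO than in WT skin by edgeR, where 3.58% of all genes passed (1.98% higher and 1.60% lower, or 382 and 308 genes, against 640 and 233 with library size alone), and in vehicle skin 0 were higher and 0 lower, where 2.17% passed (1.44% higher and 0.727% lower). DESeq2 and limma-voom also called 0 in each. At an unadjusted p under 0.05 there were 3 genes over all treatments and 1 in vehicle skin. The 3 were Atg14, at -0.31 ± 0.09 (95% interval -0.51 to -0.12, edgeR adjusted p = 0.0861), Wipi2, at -0.21 ± 0.07 (edgeR adjusted p = 0.156), and Optn, at 0.63 ± 0.28 (edgeR adjusted p = 0.304). In vehicle skin the 1 gene was Optn, at 0.88 ± 0.39 (95% interval 0.01 to 1.74, edgeR adjusted p = 0.424), and it passed without WT vehicle replicate 2, the 1 fit in which any of the 38 did. Optn had 2.58 and 3.13 CPM in KO vehicle skin, against 0.848 and 2.22 CPM in WT vehicle skin. Marker lists differed between the same libraries: in vehicle skin 4 of 4 sebaceous (median 1.40) and 4 of 5 skeletal muscle markers (median 3.15) were higher in KO. In vehicle skin 1 of 5 hair follicle stem cell markers was also higher in KO. Over all treatments 3 of 4 sebaceous and 2 of 5 hair follicle stem cell markers were higher and 2 of 7 T cell markers lower in KO. Of 9 keratinocyte markers 1 was called lower in KO over all treatments. Of those 9, 8 had a log2 fold change below 0 and 5 an unadjusted edgeR p under 0.05. The part of all these markers in the genotype values was not tested.

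For the 37 genes other than Optn, the 95% intervals of KO against WT over all treatments lay between -0.51 (Atg14) and 0.58 (Atg4a), and those in vehicle skin between -0.74 (Atg10) and 0.72 (Atg4c). For Ddit4 the difference was -3.16 ± 0.18 over all treatments (edgeR adjusted p = 1.2e-05) and -2.71 ± 0.13 in vehicle skin (edgeR adjusted p = 6.65e-06). Within vehicle skin, replicates of 1 genotype differed by a median absolute log2 difference of 0.08 in KO and 0.14 in WT libraries over the 38 genes, and by as much as 1.01 for Optn and 0.69 for Atg9b between the WT replicates. KO and WT differed by a median absolute log2 difference of 0.12 under FA+TPA, from -0.48 (Atg16l2) to 0.84 (Optn), and of 0.12 under TPA, from -0.42 (Atg14) to 0.36 (Atg4c). Both medians lay between those of the KO and WT vehicle replicates. Atg5 is the 1 gene of the 38 on the chromosome of Ddit4, 15.6 Mb away, and its KO against WT difference was 0.06 ± 0.08 over all treatments.

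**Figure D4:**
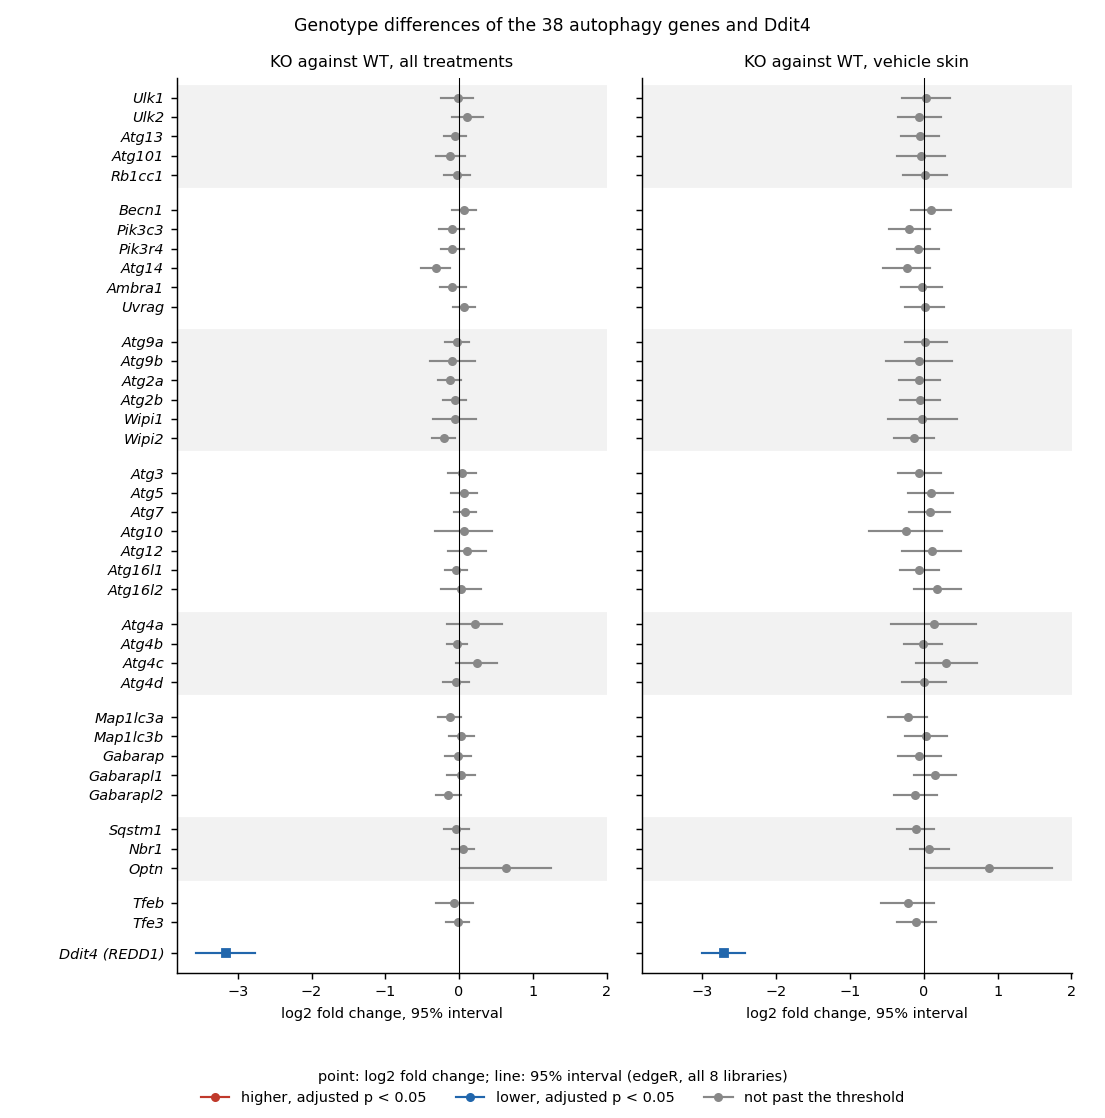
Log2 fold change of KO against WT with 95% interval for the 38 genes and Ddit4, over all treatments (left) and in vehicle skin (right), fitted with edgeR on all 8 libraries. All 38 genes are grey, as none passed the test, while Ddit4 lies at -3.16 on the left and -2.71 on the right.

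Most of the 38 genes moved in the same direction with TPA in both genotypes. Taking log2(CPM + 0.5), the TPA library minus the mean of the vehicle libraries in KO and in WT skin had the same sign for 35 of 38 genes, and for 15713 of all 19251 genes. Across the 38 genes Pearson's r was 0.92 and Spearman's rho 0.95, against 0.86 and 0.81 across all tested genes. Genes are not independent replicates, and each genotype contributed 1 TPA library. The 3 genes of opposite sign were Atg3 (0.04 in KO and -0.04 in WT), Atg4b (-0.09 in KO and 0.00 in WT) and Gabarapl1 (-0.36 in KO and 0.00 in WT). By edgeR the interaction of genotype with TPA called 0 of the 38 higher and 0 lower, where 0.00519% of all genes passed. At an unadjusted edgeR p under 0.05 there were 0 of the 38. DESeq2 and limma-voom also called 0 of the 38. Over all genes DESeq2 called 1 higher and 10 lower, and limma-voom called 0. For Gabarapl1 the interaction with TPA was -0.37 ± 0.23 by edgeR (95% interval -0.87 to 0.13). The interaction with FA likewise called 0 of the 38, and 0 of all genes, by edgeR, with 1 at an unadjusted p under 0.05 and 0 called by DESeq2 and limma-voom. That gene was Atg16l2, at -0.69 ± 0.29 (95% interval -1.34 to -0.04, edgeR adjusted p = 1), whose FA+TPA minus TPA difference was 0.50 in KO and 1.17 in WT skin. With 2 residual degrees of freedom, these fits assumed that single treated libraries vary like the vehicle pairs, and intervals within 1 log2 unit either side of 0 were reached for 28 of the 37 genes other than Optn with FA and for 35 with TPA.

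**Figure D5:**
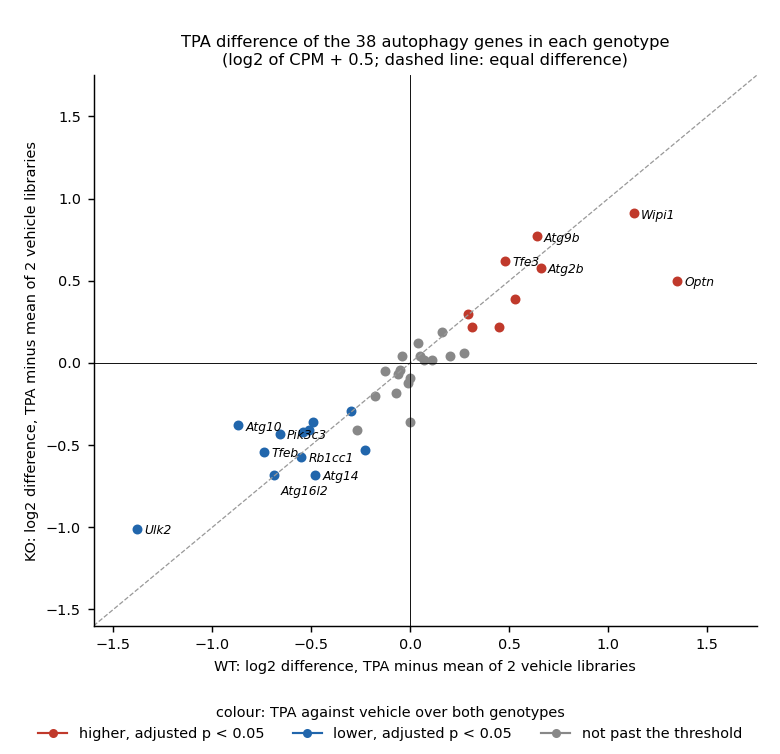
TPA response of the 38 genes in KO skin (vertical axis) against WT skin (horizontal axis), each as the TPA library minus the mean of 2 vehicle libraries on the log2(CPM + 0.5) scale, with a dashed line of equal difference and colours for the call over both genotypes. Of the 38 points, 35 have the same sign on both axes, and Optn (0.50 in KO, 1.35 in WT) lies farthest to the right.

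Neighbouring steps of the pathway were counted on 7 further lists of 107 genes measured. Between 28.6% and 75% of a list passed with TPA against vehicle, beside 46.0% of all genes (23.2% higher and 22.8% lower), and between 0% and 23.1% with FA+TPA against TPA, beside 10% of all genes. No list was tested against the others. Lysosomal hydrolases and membrane proteins moved both ways with TPA, with 7 of 26 higher and 7 lower (median -0.02), a share of 53.8%. The 3 of smallest p were cathepsin proteases, which rose. Ctsl had 1300 and 1220 CPM in KO and WT skin under FA+TPA, 1860 and 1570 CPM in KO and WT skin under TPA, and 219 to 254 CPM in vehicle skin, and TPA exceeded vehicle by 2.83 ± 0.09 (edgeR adjusted p = 2.19e-08). Ctsb rose by 1.09 ± 0.08 (edgeR adjusted p = 3.47e-06) and Ctsd by 1.30 ± 0.13 (edgeR adjusted p = 2.55e-05). Glb1, the lysosomal galactosidase, named after its values were seen, fell by 1.29 ± 0.18 (edgeR adjusted p = 0.000227). With FA+TPA against TPA, Ctsb fell by 0.60 ± 0.10 (edgeR adjusted p = 0.00389), and so did Ctsl, named after its values were seen, which fell by 0.44 ± 0.11 (edgeR adjusted p = 0.0285), while the lipid hydrolase Asah1 rose by 0.68 ± 0.12 (edgeR adjusted p = 0.00568). Without the KO FA+TPA library the adjusted p was 0.0561 for Ctsb and 0.168 for Ctsl, and without the WT FA+TPA library it was 0.158 for Ctsl and 0.103 for Asah1. Without the KO TPA library it was 0.159 for Ctsl, and without the WT TPA library 0.0669 for Ctsl and 0.0525 for Asah1. The Ctsl call was also lost with library size alone (0.0665) and with 1 mean per group (0.0864). Macrophage and monocyte markers, whose cells are rich in cathepsins, had 6 of 9 genes higher and 1 lower with TPA (median 1.72). They summed to 178 CPM in KO and 149 CPM in WT skin under FA+TPA, and to 113 to 133 CPM in vehicle skin. Under TPA they summed to 325 CPM in KO and 135 CPM in WT skin. Their part in these values was not tested. The vacuolar ATPase, which acidifies lysosomes, had 7 of 15 genes higher and 0 lower with TPA (median 0.22), a share of 46.7%, led by Atp6v1b2 at 1.04 ± 0.08 (edgeR adjusted p = 5.14e-06), and 0 of 15 passed between FA+TPA and TPA. With library size alone, under which the median of all genes was -0.253, the TPA values were 0.11 for Atp6v0b (adjusted p = 0.367, the call being lost), 0.34 for Atp6v0a1 and 0.33 for Atp6v1g1.

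Other regulators split in direction. With TPA 61.5% of nucleation and membrane regulators and 75% of further selective receptors passed, beside 46.0% of all genes (23.2% higher and 22.8% lower). Between FA+TPA and TPA 23.1% and 18.8% of these lists passed, beside 10% of all genes (5.71% higher and 4.31% lower). Of 13 nucleation and membrane regulators, 4 rose and 4 fell with TPA. Vmp1, a scramblase needed to close the membrane, had 79.0 and 69.6 CPM in KO and WT skin under FA+TPA, 119 and 116 CPM in KO and WT skin under TPA, and 30.0 to 53.4 CPM in vehicle skin, with 1.49 ± 0.13 for TPA against vehicle (edgeR adjusted p = 8.19e-06) and -0.67 ± 0.16 for FA+TPA against TPA (edgeR adjusted p = 0.0219). Wdr45, a WIPI relative, ran the other way, with 21.3 and 24.6 CPM in KO and WT skin under FA+TPA, 12.2 and 13.3 CPM in KO and WT skin under TPA, and 23.2 to 29.5 CPM in vehicle skin. Its differences were -1.10 ± 0.11 for TPA against vehicle (edgeR adjusted p = 2.36e-05) and 0.85 ± 0.13 for FA+TPA against TPA (edgeR adjusted p = 0.0021). Bcl2, which binds and restrains Becn1, did likewise, at -1.11 ± 0.15 (edgeR adjusted p = 0.000149) and 0.63 ± 0.17 (edgeR adjusted p = 0.0381). Of 16 further selective receptors, 6 rose and 6 fell with TPA (median -0.10), among them Phb2, a receptor of the inner mitochondrial membrane (0.57 ± 0.09, edgeR adjusted p = 0.000403) and the mitophagy receptor Bnip3l (0.56 ± 0.09, edgeR adjusted p = 0.000454). Under scaling by library size alone these values were 0.35 for Phb2 and 0.33 for Bnip3l. With FA+TPA against TPA 3 of the 16 rose, namely Calcoco1 (0.63 ± 0.09, edgeR adjusted p = 0.00183) and the ER-phagy receptors Retreg1 (0.71 ± 0.14, edgeR adjusted p = 0.00816) and Tex264 (0.46 ± 0.10, edgeR adjusted p = 0.0129). Of these FA+TPA calls, that of Vmp1 was lost without the KO (adjusted p = 0.205) or WT (0.0997) FA+TPA library or the WT TPA library (0.223), and that of Bcl2 without the same 3 (0.11, 0.3 and 0.322), its value being 0.39 without the WT TPA library, and also with library size alone (0.0545). Those of Retreg1 (0.0519, 0.156 and 0.127) and Tex264 (0.127, 0.165 and 0.197) were lost without the KO or WT FA+TPA or the KO TPA library, Retreg1 being at 0.47 without the last. Those of Wdr45 and Calcoco1 held with each library left out.

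Over all genes 46.0% passed with TPA (23.2% higher and 22.8% lower) and 10% between FA+TPA and TPA (5.71% higher and 4.31% lower). Of 14 fusion genes 2 rose and 2 fell with TPA (median 0.13), a share of 28.6%. Among them were the adaptor Plekhm1 (0.62 ± 0.11, edgeR adjusted p = 0.000777, and 0.39 with library size alone) and Vps41, a subunit of the HOPS tethering complex (-0.64 ± 0.11, edgeR adjusted p = 0.000824). Between FA+TPA and TPA 0 of the 14 passed. Of 10 kinases and partners that act on the ULK1 complex 4 rose and 1 fell with TPA (median 0.17), a share of 50%. The fall was Prkaa1, a catalytic subunit of AMPK (-0.46 ± 0.09, edgeR adjusted p = 0.0026). Another AMPK subunit, Prkab1, was among the rises (0.51, edgeR adjusted p = 0.00286). With library size alone the Prkab1 value was 0.28 and its call was lost. Between FA+TPA and TPA 0 of the 10 passed. Of 13 further genes of the TFEB family and lysosomal nutrient sensing 2 rose and 3 fell with TPA (median 0.07), a share of 38.5%. Tfec, a relative of Tfeb known from macrophages, was 1 of the rises (edgeR adjusted p = 1.81e-05), at 0.181 and 0.127 CPM in KO and WT skin under FA+TPA and 2.69 and 1.05 CPM in KO and WT skin under TPA. In all 4 vehicle libraries Tfec was at 0 to 0.0517 CPM, below the level of 3 counts, and its fold change is therefore not given. Fnip1, a partner of folliculin, fell by 0.57 ± 0.08 (edgeR adjusted p = 0.000305). With FA+TPA against TPA 2 of these 13 fell, Tfec (edgeR adjusted p = 0.00376, lost without the KO FA+TPA library at 0.129 and without the KO TPA library at 0.148) and Fnip2 (-0.37 ± 0.10, edgeR adjusted p = 0.0459). The Fnip2 call was lost in 10 of 16 alternatives: without any of the 4 treated libraries (0.13 to 0.275), without KO vehicle replicate 1 (0.0729) or 2 (0.0503), by DESeq2 (0.0558) and limma-voom (0.0534), with library size alone (0.113) and with 1 mean per group (0.109).

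Between genotypes, 2 of these neighbouring genes passed the test. Fnip2, a second partner of folliculin in the nutrient signal that controls Tfeb and Tfe3, had 33.9 CPM in KO and 54.8 CPM in WT skin under FA+TPA, 44.3 CPM in KO and 69.9 CPM in WT skin under TPA, and 40.1 and 35.6 CPM in KO against 66.1 and 67.1 CPM in WT vehicle skin. Every KO library was below every WT library. The difference was -0.75 ± 0.07 over all treatments (edgeR adjusted p = 0.000402), which held with each library left out, and -0.81 ± 0.12 in vehicle skin (edgeR adjusted p = 0.00977), which did not hold without KO vehicle replicate 2 (adjusted p = 0.0577). Dapk1, a kinase that frees Becn1 from Bcl2, had 25.7 CPM in KO and 17.4 CPM in WT skin under FA+TPA, 21.7 CPM in KO and 18.2 CPM in WT skin under TPA, and 23.0 and 27.4 CPM in KO against 15.6 and 15.5 CPM in WT vehicle skin. KO and WT libraries did not overlap, and the difference was 0.55 ± 0.10 over all treatments (edgeR adjusted p = 0.0182) and 0.70 ± 0.15 in vehicle skin (edgeR adjusted p = 0.0456). Without KO vehicle replicate 2 the Dapk1 differences had adjusted p-values of 0.0562 and 0.355, and the first was 0.095 without the KO FA+TPA library, 0.093 without the WT FA+TPA library and 0.056 without WT vehicle replicate 2. In vehicle skin Dapk1 was also not called by DESeq2 (0.158), by limma-voom (0.0585) or with a minimum count of 50 (0.0652). The other 5 lists had 0 genes past the edgeR test in either genotype comparison, where 3.58% and 2.17% of all genes passed. Sebaceous, skeletal muscle, hair follicle, T cell and keratinocyte markers differed between the same libraries, as given with the genotype results. Their part in the Fnip2 and Dapk1 values was not tested.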

How the data were processed

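Total RNA from 8 libraries of mouse epidermis was sequenced. Per the submitters' processing notes, reads were handled with Trim Galore, STAR and HTSeq on mm10; no version, annotation release or strand setting is named in the sources used here. The deposited files hold raw read counts per Ensembl gene, 1 library each, not normalised by the authors, and no rows outside genes. Without the strand setting, reads of overlapping genes, which 13 of the 38 genes have, cannot be told apart. Identifiers were matched to GENCODE M21 (54165 of 54232) and promoter windows were taken from RefSeq GRCm38.p6. Groups came from the labels.

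CPM were computed with TMM factors (0.859 to 1.102). The test was edgeR's quasi-likelihood F test (version 4.0.16, R 4.3.3) after filterByExpr by treatment (minimum count 10, 19251 genes), with Benjamini-Hochberg adjustment over all of them and a threshold of 0.05. Comparisons of treatments, and of KO with WT across treatments, used an additive model (genotype plus treatment, 4 residual degrees of freedom), while KO against WT in vehicle skin and the interactions had a mean for each group, leaving 2 residual degrees of freedom. SE is the absolute log2 fold change over the square root of F. Intervals are 95%. The fits were tested on simulated counts. No replicates were duplicates within sampling noise (chi-square over degrees of freedom 13.81 for KO and 31.08 for WT vehicle). A floor of 3 counts, like the intervals of counts, covers counting error only. Alternatives were RLE normalisation, library size alone, no filter, a minimum count of 50, DESeq2 1.42.0, limma-voom (limma 3.58.1), removal of Gm26917, 1 mean per group, each library left out in turn, and the 4 vehicle libraries by themselves, either with a block for the replicate number or with none. The rule for named genes took all of the 38 past the threshold, Ddit4, and up to 3 genes of smallest p from each of 7 further lists. The 38 genes and all lists were chosen with earlier results of these data known. Tp53inp1 was not matched. 1 gene that this rule takes is not reported here, for a reason unrelated to its values. Markers of 13 cell types were summed.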

Additional observations from a re-analysis of the deposited data

How the results depend on the processing

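Counts of the 38 genes passing the edgeR test kept within 1.5 times the reported count under the alternatives tried, with the exceptions that follow. With library size alone, TPA against vehicle gave 5 higher and 20 lower and FA+TPA against vehicle 12 lower, with the median log2 fold change of all genes at -0.253 and -0.233. With 1 mean per group, FA+TPA against TPA gave 3 higher. Leaving out 1 library gave 5 to 9 higher and 8 to 12 lower for TPA against vehicle, 1 to 10 higher and 0 to 1 lower for FA+TPA against TPA, 5 to 9 higher and 3 to 6 lower for FA+TPA against vehicle, 0 to 1 higher for KO against WT in vehicle skin, and 0 for KO against WT over all treatments and for both interactions. Such fits with 1 library in a treated group assume that it varies like the other groups. No result reversed its sign. Of the calls of the 38 genes, each recomputed under 16 alternatives, 291 held and 45 were lost for TPA against vehicle, 83 held and 45 were lost for FA+TPA against TPA, and 196 held and 12 were lost for FA+TPA against vehicle. The TPA calls of Ulk2, Rb1cc1, Pik3c3, Atg14, Uvrag, Atg2b, Wipi1, Map1lc3a, Tfeb and Tfe3 held in all 16 alternatives. The cause of the losses of the other calls was not tested. Leaving out a library changed both the number of samples and which libraries were present.

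Vehicle replicates of KO and WT share only a number: the deviations of same-numbered libraries correlated at -0.098. With vehicle libraries alone, the fit with a replicate block called 0 of the 38 genes higher and 0 lower between genotypes, as did the fit without it, while over all genes the counts were 489 higher and 162 lower with the block and 213 higher and 67 lower without it, against 278 and 140 in the reported fit. Treatment differences within 1 genotype, each with 1 treated library, are given without a test. The intervals for TPA against vehicle were widest for Optn, Atg10 and Atg4a, and the part of depth in that was not tested.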
